A study of Mus musculus with 4 samples.

Results

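Cxcl1, Cxcl2, Cxcr2, Cxcr4 and Csf3r, genes of neutrophil attraction and trafficking, were described in immune cells of the mouse brain after cardiac arrest (CA). They were taken by symbol as 5 of the 32285 features counted, and all 5 were found. Wild-type C57Bl/6 mice, young at 3 to 6 months or aged at 18 to 20 months, had CA induced with potassium chloride and were resuscitated, or had sham surgery without the arrest. On day 3 brains were perfused and dissociated, and cells bearing the leukocyte surface protein CD45 were sorted for droplet single-cell RNA sequencing of transcript 3′ ends. Each of the 4 groups, sham and CA at both ages, was 1 library from 3 pooled mice whose cells cannot be told apart by animal. Sets of 4 values run from young sham and young CA to aged sham and then aged CA. No value has a replicate spread and no test between groups was possible. Intervals are 95%, cover counting error only, and compare libraries, not conditions.

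Cxcl1 and Cxcl2 encode secreted chemokines that draw neutrophils out of the blood, and Cxcr2 encodes the receptor through which mouse neutrophils sense both. Cxcr4 encodes the receptor for Cxcl12, which holds neutrophils in the bone marrow and also guides monocytes, lymphocytes and other cells. Csf3r encodes the receptor for granulocyte colony-stimulating factor (G-CSF), the growth factor that drives neutrophil production and release, and microglia, the resident macrophages of the brain, carry it as well. NF-kB, a transcription factor switched on by interleukin 1, tumour necrosis factor and bacterial products, is a known inducer of the Cxcl1 and Cxcl2 genes.

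The 5 genes are protein coding and lie on 3 chromosomes (GENCODE M21, GRCm38, the assembly that mm10 names). Cxcl1 (ENSMUSG00000029380) spans chr5:90891241-90893115 and Cxcl2 (ENSMUSG00000058427) chr5:90903871-90905938, both on the plus strand, with 10755 bases between them. Cxcr2 (ENSMUSG00000026180) spans chr1:74153989-74161246 on the plus strand and Cxcr4 (ENSMUSG00000045382) chr1:128588199-128592293 on the minus strand. Csf3r (ENSMUSG00000028859) spans chr4:126024550-126044440 on the plus strand.

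The promoters of the ligand pair are shown because both hold GGGAATTTCC, a form of the motif bound by NF-kB. This form was not found in the promoters of the 3 receptors. The letters below run 5′ to 3′ on the plus strand, from 120 to 31 bases before the RefSeq start of each gene (RefSeq, GRCm38.p6), and capitals mark the motif GGGAATTTCC, the first 10 bases of the longest run of letters that the pair share. The windows are chr5:90891125-90891214 and chr5:90903779-90903868.
Cxcl1: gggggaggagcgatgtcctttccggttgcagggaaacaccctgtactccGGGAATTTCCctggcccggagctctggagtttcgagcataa
Cxcl2: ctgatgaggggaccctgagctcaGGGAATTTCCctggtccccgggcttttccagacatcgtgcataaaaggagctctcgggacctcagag

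The RefSeq starts of Cxcl1 and Cxcl2 differ from the GENCODE starts given above. Counted from the RefSeq start, the motif stood at -71 to -62 in Cxcl1 and at -97 to -88 in Cxcl2. Cxcl3, another neutrophil attractant of the same family, had it at -73 to -64. On either strand it was found in 28 of 32817 promoters, or 0.0853%, over 250 bases before the start. The motif was taken from Cxcl1 and Cxcl2, so its presence in both was fixed by that choice. Aligned on the motif, Cxcl1 and Cxcl2 shared an unbroken run of 14 bases, GGGAATTTCCCTGG, while 23 of the 50 bases before the motif were identical. The looser form GGGANTTTCC, which contains the first, was in 0.357% of promoters and likewise in no receptor promoter. GGGCGG, the box of the factor Sp1 (32.7% of promoters), was in Cxcl2 once on the gene's strand and in Cxcr4 3 times on the opposite strand. The core promoter box TATAAA (12.4%) was in Cxcr4 on both strands in overlapping copies. TGANTCA, the site of AP-1 factors (6.75%), and TTCNNNGAA, the site of STAT factors (7.01%), were in none of the 5. A match describes letters only, and a missing match says nothing about the factor. NF-kB sites of other forms were not searched for.

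**Figure D1:**
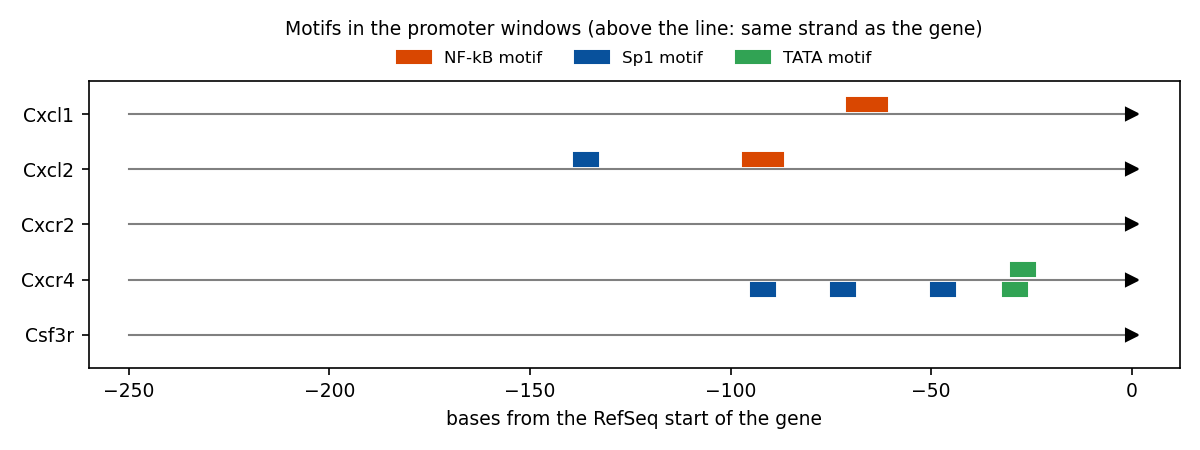
Motif matches in the 250 bases before the RefSeq start of each gene, in bases from the start. Boxes above a line are on the gene's strand and boxes below it on the other. The NF-kB motif drawn, GGGAATTTCC, was taken from Cxcl1 and Cxcl2, and it appears in none of the 3 receptor promoters.

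The libraries held 44277472 to 115892682 unique molecular identifiers (UMIs), counts of captured transcripts, over 6794 to 10794 barcodes. After filters 5888 to 10131 cells remained. Cells were put in classes by marker genes, none of them a gene described here. Gated microglia numbered 8141, 9096, 5630 and 4701, and gated neutrophils 7, 25, 39 and 67. All 12 neutrophil markers had UMIs in the gated neutrophils of every library, and their microglial marker level was 3.18% to 5.91% of that in microglia. Both values follow in part from the gate, which used the same marker lists, and are no separate check of identity. Neurons (66 to 133 barcodes) came through the CD45 sort and were used, with T cells, as a guide to background, except for Cxcr4 in T cells. That neurons carry none of these genes was assumed and not tested. Their median depth was 6788 to 26535 UMIs, against 3521 to 10859 in microglia. Aged sham stood apart. It had the lowest median depth (3130 UMIs per cell against 6368 to 10432.5), the highest haemoglobin level in microglia (29.2 CPM, UMIs scaled to a common class total, against 1.11 to 2.92), and 355 barcodes with microglial and neutrophil markers together (11 in young sham, 25 in aged CA). The aged CA to sham ratios rest on it, and that comparison cannot be made without it. Library pairs shared 12 to 32 cell barcodes, at most 0.425% of the smaller library.

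Cxcl2 separated aged CA from the other 3 libraries. Over all kept cells it stood at 0.180, 0.615 and 0.841 CPM in those 3, and at 78.1 CPM in aged CA (interval 76.0 to 80.3). The UMIs behind these levels were 13, 70, 37 and 5317. Of the aged CA UMIs, gated neutrophils held 59.6%, microglia 6.24% and monocytes or macrophages 2.14%, while 31.6% lay in barcodes with markers of more than 1 class. Levels are compared within a gene only, since tags of transcript ends depend on each gene's 3′ end. The plot of levels by class shows the 4 detected genes. Cxcr2 was highest in neutrophils, and Csf3r was shared by neutrophils and microglia. Cxcr4 was spread over neutrophils, monocytes, lymphocytes and border-associated macrophages, and was lower in microglia. Cxcl2 was high in aged CA neutrophils.

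**Figure D2:**
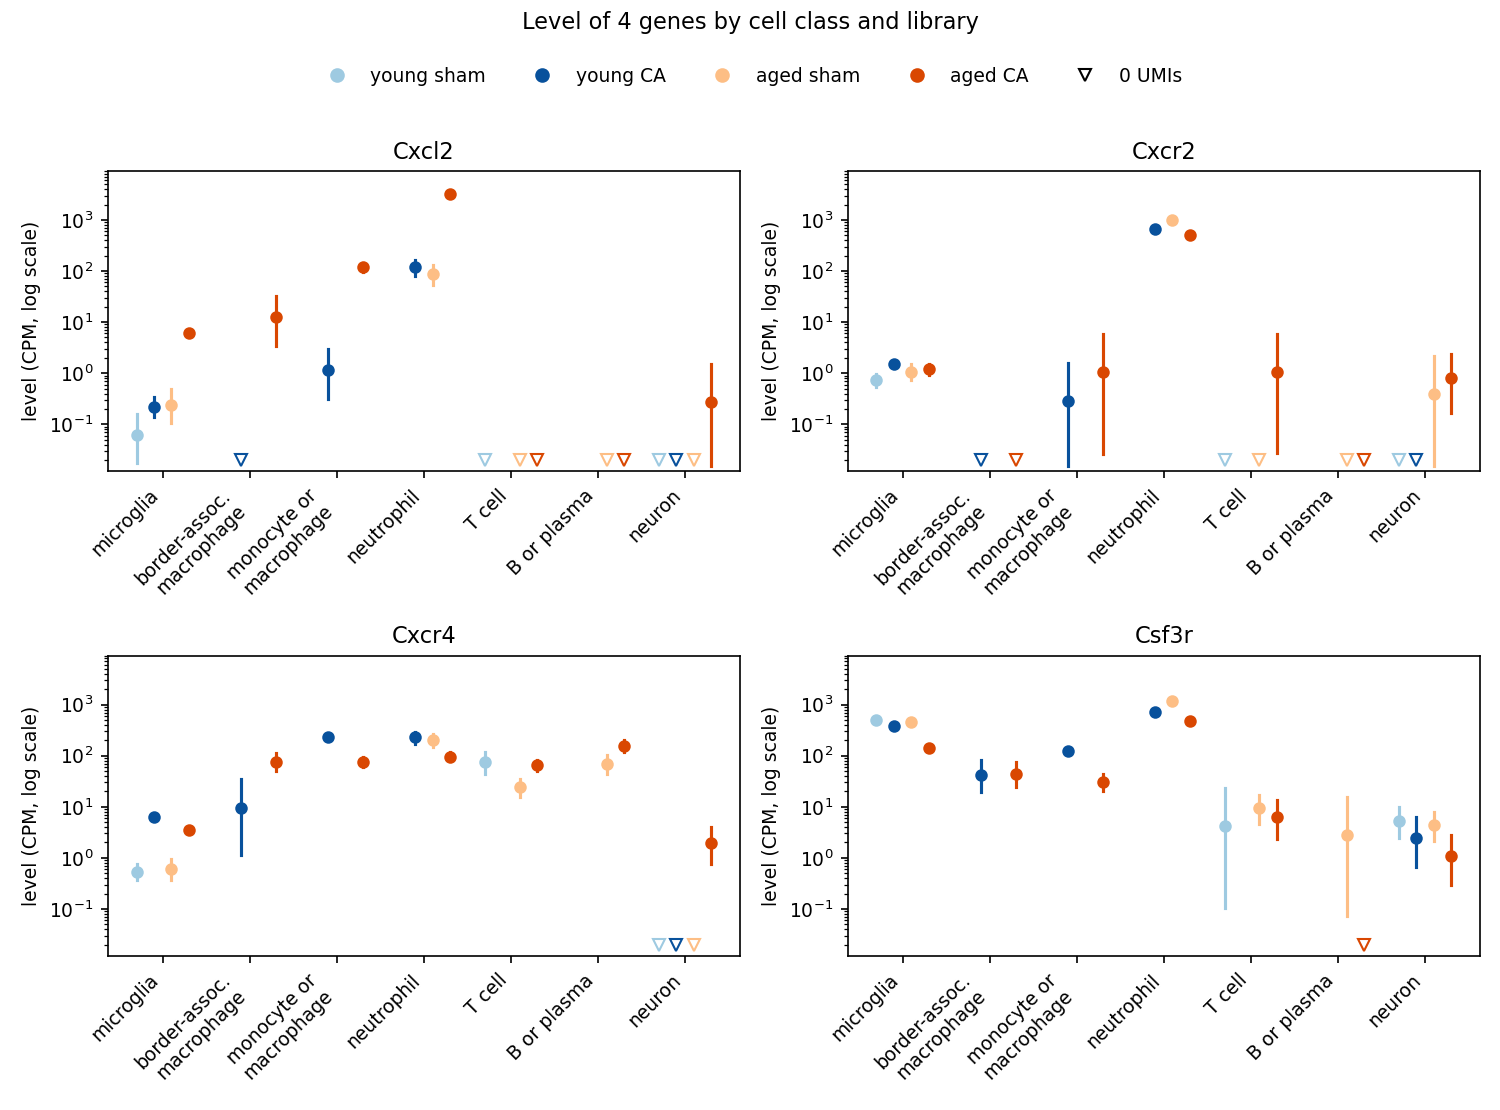
Level of Cxcl2, Cxcr2, Cxcr4 and Csf3r (CPM, log scale) in each class of at least 20 cells, by library, with exact Poisson 95% intervals. Open triangles are classes with 0 UMIs. Aged CA neutrophils stand at 3181 CPM of Cxcl2, against 117 in young CA and 86.5 in aged sham.

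Cxcl1 was close to undetected. It had 2, 14, 0 and 16 UMIs over all kept cells. Microglia had 1 UMI in all, and the 0 of aged CA microglia allows at most 0.0558 CPM (3 UMIs of the class total). Dendritic cells, the antigen-presenting cells, gave 13 of the 32 UMIs although only 9 were gated, 5 in young CA and 4 in aged CA. A lone aged CA neutrophil gave another 7. Cxcl1, Cxcl2 and Cxcl3 are close relatives, and how reads common to them were assigned was not given in the sources used here. No fold is given for Cxcl1.

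In neutrophils Cxcl2 was highest in aged CA. Young CA neutrophils stood at 117 CPM (79.2 to 168, from 30 UMIs), aged sham ones at 86.5 (52.8 to 134, from 20 UMIs) and aged CA ones at 3181 (3071 to 3293, from 3167 UMIs). Young sham had 0 UMIs in its 7 gated neutrophils, too few for a level. The intervals of young CA and aged sham overlapped, and aged CA lay above both. Aged CA was 36.8-fold above aged sham (23.8 to 60.3) and 27.1-fold above young CA (18.9 to 40.2). These ratios share the aged CA library. Neurons had 0, 0, 0 and 1 Cxcl2 UMI, and T and B or plasma cells of at least 20 cells had 0. Immediate early genes, which respond to handling as well as to signals, summed to 2936 CPM in aged CA neutrophils against 1817 in aged sham and 2012 in young CA, and their part in the result was not tested.

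Most of the UMIs came from a few cells. A UMI of Cxcl2 was seen in 36 of 67 aged CA neutrophils, in 2 of 39 aged sham and in 4 of 25 young CA neutrophils. At least 10 UMIs were seen in 17 aged CA cells and in 1 cell each of aged sham and young CA. The highest aged CA cell held 1016 UMIs, and the 5 highest held 74.1% of the class total. Without the UMIs of those 5 cells the aged CA level was 823 CPM, still above the whole of aged sham and young CA. Depth differed, with a median of 14079 UMIs per neutrophil in aged CA, 1855 in aged sham and 10928 in young CA. Thinned to 1000 UMIs per cell, with shallower cells left out (12 in aged sham, 1 in aged CA), 30.3% of aged CA neutrophils had a Cxcl2 UMI (19.6 to 42.9), 3.70% in aged sham (0.0937 to 19.0) and 8% in young CA (0.984 to 26.0).

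**Figure D3:**
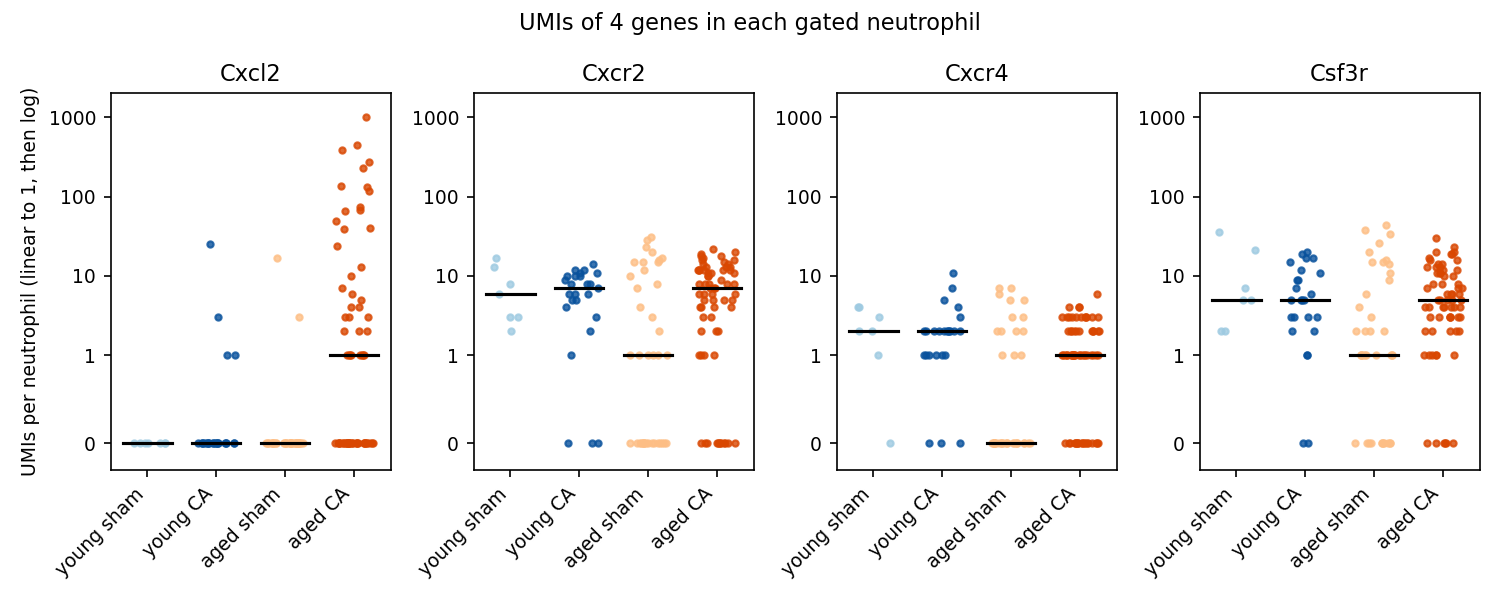
UMIs of Cxcl2, Cxcr2, Cxcr4 and Csf3r in each gated neutrophil (points, axis linear to 1 and logarithmic above) by library, with the median as a bar. Cxcl2 reaches 1016 UMIs in aged CA and at most 25 in the other libraries, while the 3 receptors reach at most 44 UMIs in any cell.

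In monocytes or macrophages, blood-derived phagocytes, Cxcl2 was 1.16 CPM in young CA (0.316 to 2.97, 181 cells) and 118 in aged CA (97.5 to 142, 38 cells), a 102-fold difference (38.7 to 380). The 5 highest aged CA cells held 91.2% of it, and without their UMIs 10.4 CPM was left. The neutrophil marker list stood at 2701 CPM in these aged CA monocytes and at 200 CPM in young CA. The part of that in the result was not tested. Border-associated macrophages had 0 Cxcl2 UMIs in 28 young CA cells and 4 in 38 aged CA cells (12.8 CPM, 3.47 to 32.7), too few to show a difference (lower limit of the ratio 0.443).

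In microglia Cxcl2 was 0.0629, 0.222, 0.244 and 6.18 CPM, from 4, 22, 8 and 332 UMIs. Aged CA lay above the other 3 libraries, whose levels lay under what 0 UMIs in their neurons allow (1.77, 1.85 and 1.18 CPM). The CA level was 3.53 times that of sham in young (1.20 to 14.1) and 25.4 times in aged mice (12.7 to 59.2). After CA aged was 27.8-fold above young (18.0 to 44.9). A UMI was seen in 61 of 4701 aged CA microglia, and the 5 highest held 68.4% of the UMIs. Without those UMIs 1.95 CPM was left. The cells with Cxcl2 also carried the neutrophil marker list at 726 CPM, against 40.0 in the other aged CA microglia. Among microglia without a single neutrophil marker UMI, Cxcl2 was 4.63 CPM in aged CA (3.94 to 5.40) and 0.330 in aged sham (0.133 to 0.679).

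Within aged CA, cells with Cxcl2 were set beside cells without it, a split chosen after the values were seen. Each side comes from the same library, so the values describe cells and have no test. The 17 neutrophils with at least 10 Cxcl2 UMIs were shallower (median 8361 UMIs) than the other 50 (16227). They held 1795 CPM of the neutrophil attractant Cxcl3 against 3.52, and 5664 CPM of Ccl3 against 50.5. Ccl3 and Ccl4 encode chemokines for monocytes and lymphocytes, and Ccl4 stood at 4161 against 51.6 CPM. Il1b, the gene of interleukin 1 beta, was 4203 against 201 CPM, and Tnf, the gene of tumour necrosis factor, 404 against 36.4. Genes that NF-kB induces to limit its own activity went the same way, with Nfkbia at 3055 against 383 CPM and Tnfaip3 at 1134 against 12.9. Cxcr4 was 125 against 90.4 CPM and Csf3r 696 against 450. Among the 17 cells, 5 held 13 of the 18 Cxcr4 UMIs and 5 held 70 of the 100 Csf3r UMIs. Among the other 50, 5 held 20 of 77 and 5 held 108 of 383. Summed Cxcr2 was 473 against 506 CPM, but its cells were split. Of the 17 cells 10 had 0 Cxcr2 UMIs, against 2 of the other 50, and 5 cells held 62 of the 68 UMIs. Those 10 cells had a median of 6110 UMIs and the neutrophil marker list at 106800 CPM, against 12517 UMIs and 204090 CPM in the 7 with Cxcr2, and the part of depth was not tested. The neutrophil marker list was 157178 against 355805 CPM, and the immediate early list 5845 against 2445. CPM is a share of all UMIs, so the share of the neutrophil list bears on the level of every other gene. Its part in these values was not tested.

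The 61 aged CA microglia with a Cxcl2 UMI (median 12676 UMIs) were set beside 4640 without (10847). Ccl3 was 3895 against 903 CPM, Ccl4 5700 against 1184 and Tnf 1072 against 252. Cxcl10, an interferon-induced chemokine, was 4416 against 1119 CPM and Il1b 167 against 50.9. Cxcl3, high in the neutrophils with Cxcl2, had only 1 UMI in these microglia. The microglial marker list was 3112 against 3947 CPM, and the immediate early list 2237 against 2209.

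**Figure D4:**
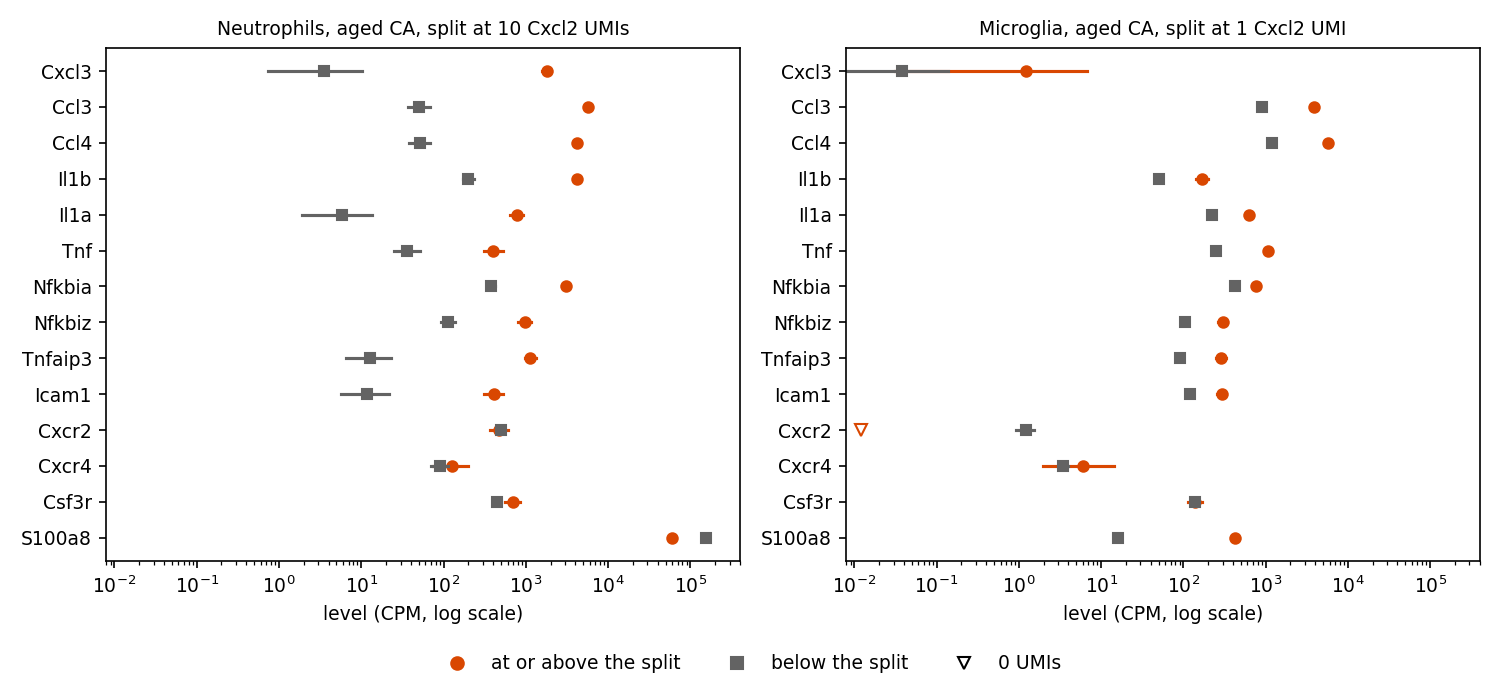
Level (CPM, log scale, exact Poisson 95% intervals) of 14 genes in aged CA neutrophils with at least 10 Cxcl2 UMIs or fewer (left) and in aged CA microglia with or without a Cxcl2 UMI (right). Triangles are 0 UMIs. Ccl3, Ccl4, Tnf and Il1b are higher on the Cxcl2 side in both classes, and Cxcl3 is at 1795 against 3.52 CPM in neutrophils.

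Cxcr2, the receptor for both ligands, had its highest level in neutrophils among the classes of at least 20 cells. Young CA neutrophils stood at 658 CPM (562 to 765), aged sham ones at 1004 (879 to 1141) and aged CA ones at 501 (458 to 547), and the 7 young sham neutrophils gave 52 UMIs. Aged sham was the highest and aged CA the lowest. Microglia had 0.723, 1.51, 1.07 and 1.19 CPM, too low to be told from background with the neurons. Those had 0, 0, 1 and 3 UMIs, where 0 allows at most 1.77 and 1.85 CPM (3 UMIs of the class total) and the intervals of the other libraries reached 2.19 and 2.40. From those low levels the CA to sham ratio was 2.08 in young (1.49 to 2.96) and 1.12 in aged microglia (0.729 to 1.74), and averaged over cells the log2 ratios were 0.11 and -1.17. Of the 64 Cxcr2 UMIs of aged CA microglia, 22 lay in 1 cell. Monocytes or macrophages had 1 UMI in each CA library, and T cells and B or plasma cells had 1 in all.

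The aged CA to aged sham ratio of Cxcr2 in neutrophils was 0.499 (0.427 to 0.586), and it depended on how neutrophils were chosen. Among all barcodes with at least 5% of UMIs from the neutrophil list, 337 in aged sham and 83 in aged CA, Cxcr2 was 360 against 400 CPM, a log2 ratio of 0.15 in place of -1.0. The microglial marker level of those barcodes was 40.6% of that in microglia in aged sham and 13.9% in aged CA, against 5.91% and 3.45% in gated neutrophils. Averaged over cells in place of summed, the log2 ratio was -0.34. Thinned to 1000 UMIs, Cxcr2 was seen in 34.8% of aged CA neutrophils (23.5 to 47.6), 59.3% of aged sham ones (38.8 to 77.6) and 60% of young CA ones (38.7 to 78.9), with overlapping intervals. Unthinned, 22 of 25, 22 of 39 and 55 of 67 had a UMI, with the smallest share in the shallowest library.

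Cxcr4 was carried by neutrophils, monocytes, border-associated macrophages (which line the vessels and coverings of the brain) and lymphocytes. Neutrophils held it at 227 CPM in young CA (172 to 293), with aged sham at 203 (149 to 270) and aged CA at 95.4 (77.2 to 117). Aged CA lay below the other libraries, at 0.420 of young CA (0.300 to 0.593) and 0.469 of aged sham (0.328 to 0.681). Averaged over cells, the aged CA to sham log2 ratio was 0.48 in place of -1.09. Aged sham neutrophils of 3603 UMIs or fewer each held 0 Cxcr4, at most 1 Cxcr2 and at most 2 Csf3r UMIs. The next deepest cell had 6667 UMIs, and the class median was 1855. The part of this split in depth in the summed and averaged ratios was not tested. Cxcr2 and Cxcr4 were seen in the same cell in 40 of 67 aged CA neutrophils, 14 of 39 aged sham ones and 20 of 25 young CA ones. In aged CA 15 cells had Cxcr2 alone and 8 had Cxcr4 alone.

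Monocytes or macrophages had 231 CPM of Cxcr4 in young CA (216 to 248) and 76.7 in aged CA (60.2 to 96.3), a ratio of 0.331 (0.258 to 0.421). A UMI was seen in 158 of 181 young CA and 27 of 38 aged CA monocytes, so most cells of the class carried it. The class's own markers differed too, with the monocyte gene Ly6c2 at 1896 CPM in young CA and 109 in aged CA, Ms4a4c at 1585 and 573, Chil3 at 2781 and 3114, and Ccr2 at 802 and 635. The part of this in the Cxcr4 and Csf3r ratios was not tested. Border-associated macrophages went the other way, with 2 UMIs (9.51 CPM) in 28 young CA cells and 24 UMIs (76.5 CPM) in 38 aged CA cells. That ratio of 8.04 had an interval of 2.0 to 70.2, and its log2 value of 3.01 was 0.81 when rival classes were allowed up to 0.75 of the marker share.

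In lymphocytes Cxcr4 was higher in aged CA than in aged sham. T cells had 23.9 CPM in aged sham (15.9 to 34.5) and 65.7 in aged CA (50.3 to 84.2), or 2.75-fold (1.73 to 4.46), while the 20 T cells of young sham had 75.5 CPM (44.8 to 119). In T cells 5.18% of 3245 genes were 2-fold or more higher in the same comparison and 6.56% lower. B or plasma cells had 68.2 CPM in aged sham (43.7 to 101) and 157 in aged CA (118 to 205), or 2.30-fold (1.40 to 3.90), beside 5.90% of 3155 genes higher and 18.6% lower. Ranked within aged CA, B or plasma cells were highest, then neutrophils, monocytes, border-associated macrophages and T cells, whose intervals overlapped from neutrophils down. Neurons had 0, 0, 0 and 7 UMIs.

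Microglia carried little Cxcr4 in sham and more after CA at both ages. Sham levels were 0.535 CPM (0.370 to 0.747) for young and 0.609 (0.372 to 0.940) for aged mice, and CA levels 6.24 (5.76 to 6.76) and 3.50 (3.02 to 4.03). Both CA libraries lay above both sham libraries, and aged CA lay below young CA at 0.560 (0.473 to 0.660). The CA level was 11.7 times that of sham in young (8.27 to 17.0) and 5.74 times in aged mice (3.61 to 9.62). The neurons of young CA had 0 UMIs, which allows at most 1.85 CPM, while those of aged CA had 1.92 CPM (0.770 to 3.95), an interval that overlaps that of aged CA microglia.

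Monocyte markers moved with Cxcr4 in microglia. In young CA the 428 microglia with a Cxcr4 UMI had the monocyte marker list at 382 CPM against 237 in the other 8668, with Ccr2, the receptor that brings monocytes into tissue, at 13.5 against 2.15. Mki67, a gene of dividing cells, was 107 against 56.7 CPM. Over all microglia the monocyte marker list was 245 CPM in young CA and 18.8 in young sham. Without any microglia that had a monocyte marker UMI, Cxcr4 was 6.22 CPM in young CA and 0.227 in young sham. The log2 ratio was 4.78, against 3.55 with them. The number and depth of the microglia left in each library are not given here, and their part in this ratio was not tested. In aged CA the 139 microglia with Cxcr4 had Spp1, the gene of the secreted protein osteopontin, at 1258 CPM against 61.5 in the other 4562. In young CA Spp1 was 1127 against 918 CPM.

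Cxcl12, the ligand of Cxcr4, was nearly absent from these cells, with 39, 11, 41 and 9 UMIs. Ackr3, which encodes the scavenging second receptor for Cxcl12, was 1.40, 1.29, 1.13 and 0.0186 CPM in microglia, the last from 1 UMI (0.000471 to 0.104). Neurons had Ackr3 at 1.77, 1.85, 2.75 and 1.92 CPM, from 3, 3, 7 and 7 UMIs. Neurons were not assumed to be free of Ackr3, so these values are no guide to background for it. The microglial UMIs were 89, 128, 37 and 1, and the cause of the low aged CA value was not tested. Neutrophils of the 3 libraries with at least 20 of them had 0 Cxcl12 UMIs, and neurons ran from 0.274 to 1.97 CPM of Cxcl12 over the 4 libraries.

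Csf3r was the one gene of the 5 above 10 CPM in microglia. Sham levels were 504 CPM (499 to 510) for young and 460 (453 to 467) for aged mice, and CA levels 384 (380 to 388) and 140 (137 to 143). Aged CA was the lowest of the 4. CA stood at 0.762 of sham in young (0.751 to 0.773) and at 0.304 in aged (0.296 to 0.313), and after CA aged stood at 0.364 of young (0.355 to 0.373). T cells had 4.20 to 9.38 CPM and neurons 1.09 to 5.30, far below microglia. Thinned to 1000 UMIs, Csf3r was seen in 40.2%, 33.7%, 35.2% and 14.1% of microglia. Unthinned shares were 85.5%, 86.8%, 68.8% and 67.2%, at median depths of 6176, 9687.5, 3521 and 10859 UMIs. Microglial markers moved with it and their part in the result was not tested, at 3934 CPM in aged CA against 10754 in aged sham and 7379 in young CA against 12613 in young sham.

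Young CA neutrophils held Csf3r at 705 CPM (605 to 815), aged sham ones at 1181 (1045 to 1330) and aged CA ones at 485 (443 to 530). Aged CA stood at 0.411 of aged sham (0.353 to 0.478), a log2 ratio of -1.28 that was -0.44 over the barcodes rich in neutrophil transcripts and -0.59 averaged over cells. Monocytes or macrophages had 123 CPM in young CA (111 to 135) and 30.1 in aged CA (20.1 to 43.2), a ratio of 0.245 (0.162 to 0.357). Border-associated macrophages had 42.8 CPM in young CA and 44.6 in aged CA, a ratio of 1.04 (0.420 to 2.73). Csf3, the gene of G-CSF itself, had 27 UMIs in aged CA, 22 of them in neutrophils, 4 in aged sham and 0 in both young libraries.

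**Figure D5:**
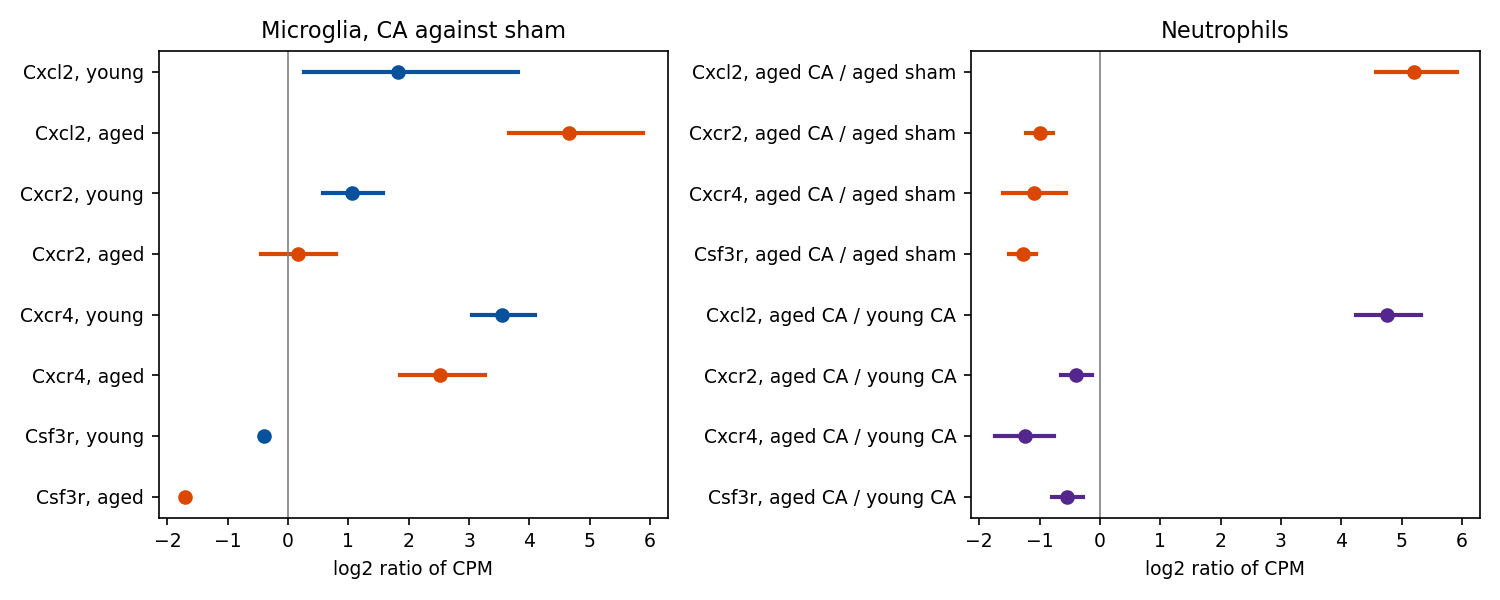
log2 ratio of CPM, with exact 95% intervals for counting error (lines), for CA against sham in microglia (left) and for aged CA against aged sham or young CA in neutrophils (right). Cxcl2 lies right of 0 in each row, and the 3 receptors lie left of 0 in aged CA neutrophils.

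Against all genes, few of the 5 could be placed. With a mean of at least 5 CPM asked for in microglia, only Csf3r was counted, and it was 2-fold or more lower in aged CA than in aged sham, as were 10.1% of 10875 genes. Between the CA libraries it was also 2-fold or more lower in aged, as were 3.24% of genes, and between the sham libraries it did not reach 2-fold, where 3.80% of genes were higher and 0.157% lower. In young it did not reach 2-fold, where 2.89% of 10661 genes were lower and 6.23% higher. In aged neutrophils, with a mean of at least 50 CPM, Cxcl2 was 2-fold or more higher, as were 8.07% of 2552 genes, and Cxcr2, Cxcr4 and Csf3r 2-fold or more lower, as were 12.8%. Cxcr2 was only just past the limit, at a log2 ratio of -1.002. Under alternatives given below, Cxcr2 and Cxcr4 each took the other direction. Between the CA libraries 6.67% of 2505 neutrophil genes were higher in aged, Cxcl2 among them, and 6.63% lower, Cxcr4 among them. In monocytes or macrophages 4.53% of 3290 genes were higher in aged CA, Cxcl2 among them, and 9.33% lower, Cxcr4 and Csf3r among them.

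Some inducers and regulators of the ligand genes were 2-fold or more higher in microglia after CA. Of 16 listed, 15 could be counted in young, where 4 were 2-fold or more higher and 0 lower, and 16 in aged, where 6 were higher and 0 lower. Of all genes 6.23% were higher and 2.89% lower in young, and 6.00% and 10.1% in aged. In young 10 of the 15 lay above 0. Tnf was 5.17, 40.0, 33.6 and 265 CPM. Nfkbia was 77.6, 185, 74.1 and 429 CPM. Tlr2, a receptor for bacterial lipoproteins, and Bcl3, a co-regulator of NF-kB, were also higher at both ages, and Il1b and Tnfaip3 in aged. The median log2 ratio of the list was 0.23 in young and 0.63 in aged, beside -0.07 and 0.02 for all genes. In aged microglia 37.3% of genes at 2-fold were higher, or 49.8% with TMM scaling, which put the median of all genes at 0.16 in aged and 0.04 in young.

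The G-CSF and interleukin 17 axis had 7 of 11 genes that could be counted in microglia, with 3 higher and 0 lower in young and 4 higher and 0 lower in aged, beside 6.23% higher and 2.89% lower of all genes in young and 6.00% and 10.1% in aged. Socs3, which damps cytokine signals such as that of G-CSF, was 14.4, 98.8, 26.3 and 257 CPM. Cebpb, a transcription factor of myeloid cells, was higher at both ages, and Stat3 in aged. The list also held Csf2ra, higher in young, and Csf2rb, higher in aged. Both encode receptor chains for GM-CSF, a growth factor other than G-CSF. The list's median log2 ratio was 0.77 in young and 1.07 in aged. Of 9 other attractant receptors 3 could be counted. Ccr1, a receptor of Ccl3, and C5ar1, the complement C5a receptor, were higher at both ages, and Ptafr, the platelet-activating factor receptor, was lower in aged.

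Further lists covered other ligands, adhesion, receptor desensitisation, immediate early genes, granule genes and haemoglobin. Of the other CXC ligands and Mif, 1 of 6 could be counted in microglia, and Mif, a cytokine that can bind Cxcr2 and Cxcr4, was 2.92-fold higher in young CA. In adhesion and migration 6 of 12 could be counted, with Cd44 higher and Pecam1 lower in young and Selplg, the selectin ligand, lower in aged. In receptor desensitisation 9 of 10 could be counted, with none at 2-fold in young and with Grk6 higher and Arrb1 and Rgs2 lower in aged. With 10.1% of all genes lower and 6.00% higher in aged, and 2.89% and 6.23% in young, counts of 1 or 2 genes are not read as a result about these lists. Among 13 immediate early genes Ier2, Dusp1 and Nr4a1 were higher at both ages, Klf2 was higher in young and lower in aged, and Fosb was lower in aged. Of the 13, 9 lay above 0 in young and 5 in aged, with median log2 ratios of 0.29 and -0.25. Summed, the list was lower in CA at both ages, at 1622 against 1694 CPM in young and 2209 against 2618 in aged. Of 10 neutrophil granule genes and 4 haemoglobin genes, 0 could be counted in young. Ngp and Hbb-bs were lower in aged CA, where sham microglia carried more of both. Both genes were also gating markers of other classes.

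In aged neutrophils Cxcl3 had 0 UMIs in sham and 261 in CA (262 CPM), at least 20.2-fold more against the limit of 3 UMIs. Of the inducers and regulators 13 of 16 could be counted and 5 were higher in CA and 0 lower, namely Il1a, Tnf, Nfkbia, Tnfaip3 and Zfp36l1, with a list median log2 ratio of 0.83 beside -0.11 for all genes. Of all neutrophil genes 8.07% were higher and 12.8% lower. Nfkbia was 86.5 CPM in sham and 768 in CA. In the G-CSF axis 7 of 11 could be counted, and Jak2, Socs3 and Cebpb were higher. Among desensitisation genes Grk6 was higher and Grk5, Arrb1 and Rgs2 lower. Of 10 granule genes 8 could be counted, and Camp, Ltf and Mmp8, which encode granule proteins made before neutrophils leave the marrow, were lower. Of the 8, 3 lay above 0 and 0 were 2-fold or more higher. Mmp8 was also a gating marker of these cells. None of 6 other attractant receptors that could be counted reached 2-fold, and Fpr1, a receptor for bacterial formyl peptides, was 337 CPM in sham and 352 in CA.

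Genes with a pattern like that of each of the 5 were ranked by Pearson correlation of log2(CPM + 1) over 23 sums of a class in a library, among 12782 genes. These sums share libraries and classes, so r is given as a description. For Cxcr2 the 4 nearest were Ltf (0.992), Itgb2l (0.989), Il1f9 (0.988) and Nlrp12 (0.985), each with under 3 CPM in microglia. For Cxcl2 they were Lrg1 (0.925), Lcn2 (0.922), Upp1 (0.917) and Il1r2 (0.908). Il1r2, the decoy receptor of interleukin 1, was 1021 CPM in aged CA neutrophils, 285 in aged sham ones and 485 in young CA ones. For Cxcr4 they were Plp2 (0.948), Cytip (0.944), Fas (0.927) and Pqlc3 (0.921), and for Csf3r Pxn (0.916), Cd33 (0.914), Nfam1 (0.906) and Anxa3 (0.883). Lcn2 was a gating marker. Cxcl1 had too few UMIs for a ranking. Among the 5 genes themselves r ran from 0.208 (Cxcr4 with Csf3r) to 0.817 (Cxcl2 with Cxcr2).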

How the data were processed

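Droplet 3′ RNA libraries of sorted CD45-positive brain cells were read from 4 matrices of raw UMI counts, 32285 features each. The authors deposited these counts, and the submitters' processing notes name Cell Ranger 7.1.0 and mm10. Neither annotation nor cell-calling settings are given in the sources used here. All columns of values were mapped to a sample.

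Barcodes with at least 500 UMIs, 200 genes and at most 10% mitochondrial UMIs were kept. A cell joined the class with the largest share of its marker list detected, among 16 lists, given at least 3 markers and no rival above 0.5 of that share (T and NK lists were not rivals of each other). Barcodes failing only the rival limit were set aside as mixed. Scrublet (scanpy 1.11.5) called 0 doublets in each library, so its calls were not used, and leaving out its highest scores was an alternative.

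For each class of a library the counts were added up and divided by all its UMIs (CPM), and levels are printed for classes of at least 20 cells. Levels have exact Poisson intervals, ratios exact conditional binomial intervals and shares exact Clopper-Pearson intervals, all at 95% and for counting error only. With 1 library per group no test was made. A gene was counted at 2-fold from log2((CPM + 0.5)/(CPM + 0.5)), given a mean of at least 5 CPM in microglia or 50 CPM in other classes, the latter chosen after the values were seen. For shares, cells were thinned to 1000 UMIs.

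Named were the 5 genes in every class of at least 20 cells, listed genes at 2-fold in microglia in either age, and for each of the 5 the 4 genes nearest by Pearson r. Other listed genes, the partners Cxcl3, Cxcl12, Ackr3 and Csf3, and the genes of cells with and without Cxcl2 or Cxcr4 were picked after their values were seen. The 5 genes and the lists were chosen with earlier results of these data known. Alternatives changed the filters, gate, scaling (TMM, edgeR 4.0.16), averaging and depth. The counting steps were tested on simulated data. Python 3.11.15, numpy 2.4.6, scipy 1.17.1, matplotlib 3.10.9 and R 4.3.3 were used.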

Additional observations from a re-analysis of the deposited data

Results flagged for a closer look

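Barcodes set aside because they carried markers of more than 1 class held Cxcl2 at 296 CPM in aged CA (282 to 310), against 1.47 in young sham, 1.42 in young CA and 1.17 in aged sham. They stood out as a signal outside the gated classes and above the sham libraries. Of their 1679 Cxcl2 UMIs, 891 lay in 25 barcodes with microglial and neutrophil markers and 477 in 19 with monocyte and neutrophil markers. Whether these barcodes are doublets was not tested.

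Cxcr4 in such barcodes was 114 CPM in young CA (107 to 121) against 17.3 in young sham, and 27.0 in aged CA (22.9 to 31.6) against 19.3 in aged sham. In young CA 697 of the 963 UMIs lay in 193 barcodes with microglial and monocyte markers. Csf3r in them was 138 CPM in young CA against 105 in young sham, and 89.4 in aged CA against 139 in aged sham. Barcodes removed for more than 10% mitochondrial UMIs held Csf3r at 327 CPM in young CA (303 to 352) against 240 in young sham (194 to 293).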

How the results depend on the processing

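No paired analysis was possible because each group was 1 library, so neither a pairing nor leaving out a replicate could be made. Of 319 alternative values of 34 ratios, 305 had the direction of the reported value, 268 lay within its counting interval and 14 had the other direction. Cxcl2 in aged CA neutrophils stayed higher under each alternative run, from 4.62 to 7.26 on the log2 scale against aged sham and from 4.39 to 5.25 against young CA. All values in this and the next paragraph are log2 ratios, and the causes of the moves were not tested.

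Of the values with the other direction, those of ratios whose own interval left out 0 were Cxcr2 in aged neutrophils over barcodes rich in neutrophil transcripts (0.15), Cxcr4 in aged neutrophils averaged over cells (0.48), and Cxcl2 in aged against young sham microglia of at least 5000 UMIs (-0.90). The rest belong to ratios whose interval held 0, such as Cxcr2 in aged microglia (0.16). Averaged over cells, CA against sham was 0.11 for Cxcr2 and -0.26 for Csf3r in young microglia, 3.12 for Cxcl2, -1.17 for Cxcr2, 1.71 for Cxcr4 and -1.51 for Csf3r in aged microglia, and 7.26 for Cxcl2, -0.34 for Cxcr2 and -0.59 for Csf3r in aged neutrophils. With rivals allowed to 0.75 it was 1.69 for Cxcr4 in aged microglia, and 6.15 for Cxcl2, -0.49 for Cxcr2 and -0.79 for Csf3r in aged neutrophils. A gate on relative marker level, chosen after seeing the data as were the next 3, gave 4.48 for Cxcr4 in young microglia, 3.42 for Cxcl2, -0.74 for Cxcr2 and 1.56 for Cxcr4 in aged microglia, and -0.19 for Cxcr2 and -0.64 for Csf3r in aged neutrophils. Barcodes rich in neutrophil transcripts gave 6.53 for Cxcl2 and -0.44 for Csf3r. Microglia without monocyte marker UMIs gave 4.78 for Cxcr4 and -0.22 for Csf3r in young, and 3.26 for Cxcl2 and -1.65 for Csf3r in aged. Microglia without neutrophil marker UMIs gave 3.40 for Cxcr4 in aged. TMM scaling gave -0.28 for Csf3r in young and -1.58 in aged microglia. Microglia of at least 5000 UMIs gave 7.25 for Cxcl2 and 1.10 for Cxcr2 in aged.

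Counts of genes at 2-fold moved with the number of genes tested. With no filter beyond 1 UMI, 1019 were higher and 547 lower for CA against sham in young, 981 and 2435 in aged, 1257 and 38 for aged against young sham, and 498 and 600 for aged against young CA. With a mean of at least 20 CPM the counts were 377 and 141, 419 and 492, 112 and 5, and 104 and 126 in the same order. Pools of 3 mice, 7 to 67 gated neutrophils a library and a shallow aged sham limit every value.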
